A study of Mus musculus with 6 samples.

Results

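The heterogeneous nuclear ribonucleoproteins (hnRNPs) and the serine/arginine-rich (SR) proteins were followed at the level of their mRNAs in 4T1 cells, a mouse mammary carcinoma line, with and without expression of the putative methyltransferase METTL7A1. Members were all genes of the count table whose symbol begins with Hnrnp or with Srsf and a number, pseudogene symbols left out, which gave 31 of 48587 listed genes: 20 hnRNP genes and 11 SR genes. Of these 31, 30 reached 1 cpm (counts scaled to library size by TMM factors) in at least 3 libraries and were tested; Srsf12 had 0 counts in all 6 libraries, which by counting error alone allows a level no higher than 0.102 to 0.164 cpm, by library. Of the 48587 genes, 13166 were tested. The METTL7A1 group consisted of 3 libraries from 4T1 cells that were stably transfected with a FLAG-tagged Mettl7a1 cDNA in the vector pBICEP-CMV-2 and kept under the selection drug G418. The mock group consisted of 3 libraries from mock 4T1 cells, which in other experiments of the study are stable transfectants of the empty vector. The labels speak of triplicates but do not tell whether the transfected cells were a clone or a pool, or whether replicates came from separate transfections, so p values measure the spread between these cultures.

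hnRNPs are abundant nuclear proteins that coat nascent transcripts through RRM or KH domains and often keep exons out of the mature mRNA. SR proteins join an RNA recognition motif to a domain rich in arginine and serine, bind enhancers within exons and recruit the spliceosome to them; their activity and nuclear import depend on phosphorylation by SRPK and CLK kinases. The families oppose each other on many exons, among them exons that differ between epithelial and mesenchymal cells, and many members limit their own level through poison exons or introns that send the mRNA to nonsense-mediated decay (NMD). HNRNPM is a member whose protein the study recovered together with METTL7A1.

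Libraries held 18386780 to 28459338 counts, and member genes took 0.796 to 0.966% of them. Mettl7a1 lay at 342, 385 and 422 cpm in METTL7A1 replicates 1 to 3 and at 1.64, 1.24 and 1.17 cpm in mock replicates 1 to 3, so every library followed its label. Epithelial markers (Krt8, Krt18, Krt19, Epcam, Cdh1) had group means of 46.1 to 624 cpm and none of the 5 was called. Leukocyte markers summed to 11.5 to 14.1 cpm in METTL7A1 and 4.87 to 6.28 cpm in mock libraries: Cd68 rose from 5.43 ± 0.758 to 12.8 ± 1.32 cpm (SD of 3 libraries each, edgeR adjusted p = 5.05e-05), Cd3e was at 0 and Ptprc had group means of 0.209 cpm in mock and 0.232 cpm in METTL7A1 cells. What part the cells behind Cd68 have in the values of splicing factors was not tested. Endothelial (Pecam1, Cdh5, Kdr) and adipocyte (Adipoq, Plin1) markers summed to under 1 cpm in every library. In bulk RNA, fewer cells that express a gene and less RNA per cell cannot be told apart.

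Most members have promoters rich in CpG, a feature that the choice by symbol did not use. In RefSeq (GRCm38.p6), 28 of the 30 tested members had an entry, with 40 promoters of 300 bases (250 before and 50 after the start). These held a median of 31.5 CpG dinucleotides, against 21 over promoters of all tested genes and 7 over all 32851 promoters, with a range of 7 to 52. The 30 bases just before the start are shown here for the 9 members that differed between the groups and for Hnrnpm, with CpG in capitals, to set the most CpG-rich promoter of the list beside ordinary ones.
Hnrnpa0: CGCGgggagggtgCGCGCGccttcagCGgc
Hnrnpab: atcCGttgttaCGaggtggtgccCGgcttc
Hnrnpk: ggagggggtttgtcctCGttctctgtctag
Srsf5: cacCGcccCGgaagtgaCGccaggaCGtcc
Srsf9: ggcttcCGCGcCGCGttcccacaatgcagt
Srsf7: ctatataagCGCGactcCGgcctcttcctt
Srsf4: tagggagaCGggggCGCGCGttctCGagct
Hnrnpa3: CGgatagcacatcaCGtggtgactggcccc
Hnrnph3: ctgCGcagctcctagagCGgttggCGCGgc
Hnrnpm: gagcCGgtCGcCGcacaaggaggCGttact
The windows lie at chr13:58128557-58128586 (minus strand, Hnrnpa0), chr11:51606882-51606911 (minus, Hnrnpab), chr13:58402118-58402147 (minus, Hnrnpk), chr12:80945469-80945498 (plus, Srsf5), chr5:115327147-115327176 (plus, Srsf9), chr17:80207306-80207335 (minus, Srsf7), chr4:131873607-131873636 (plus, Srsf4), chr2:75659229-75659258 (plus, Hnrnpa3), chr10:63023850-63023879 (minus, Hnrnph3) and chr17:33685459-33685488 (minus, Hnrnpm). Hnrnpa0 had the most CpG of all member promoters, 52 in its 300 bases.

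Motifs were searched by their letters on both strands of the same 300 bases, and the letters of none contain those of another. The GC box GGGCGG was in 82.5% of member promoters, 63.8% of those of tested genes and 35.7% of all. The CCAAT box (CCAAT) was in 52.5%, 38% and 37.4%, and the ETS site CCGGAAGT in 15.0%, 8.48% and 3.89%, the latter at Srsf5, where it lies in the window shown, Srsf4, Srsf11, Hnrnpd and Hnrnpf. TATAAA was in 10.0% of member promoters, at Hnrnpab, Hnrnpm, Srsf2 and Srsf3, against 6.68% and 13.6%, and the cAMP response element TGACGTCA was in none. The NRF1 core GCGCATGC was in 7.5%, 5.39% and 2.71%, and the YY1 site AAGATGGC in 2.5%, 4.59% and 2.75%. A match says only that these letters are present. Called and uncalled members both carried GC boxes: among the 9 called members Hnrnpk alone had none.

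Members spanned more than an order of magnitude in level when counts were put per kb of exon. In mock cells the highest levels were those of Hnrnpa2b1 (316 ± 14.4 cpm per kb, SD, n = 3), Hnrnph1 (305 ± 7.07) and Hnrnpa1 (223 ± 11.5), 3 hnRNPs known to silence exons or to bind G-rich runs. None of these was called: their log2 fold changes in METTL7A1 against mock cells were 0.08 (SE 0.08), -0.05 (SE 0.10) and 0.09 (SE 0.08). Srsf5 (222 ± 10.3) and Srsf2 (204 ± 11.2) were the most abundant SR mRNAs, and Srsf4 (22.1 ± 0.675) the least abundant of those tested. The lowest levels among tested members were those of Hnrnpr (9.94 ± 1.24) and Hnrnph2 (10.2 ± 0.302), of which Hnrnpr has an annotated exon length of 21483 bases, mostly from 1 long transcript of 21452 bases, that lowers its value per kb. The spread between replicates was larger than the gap to the next gene at many steps of this order, as for Hnrnpa1 and Srsf5 in mock cells.

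**Figure D1:**
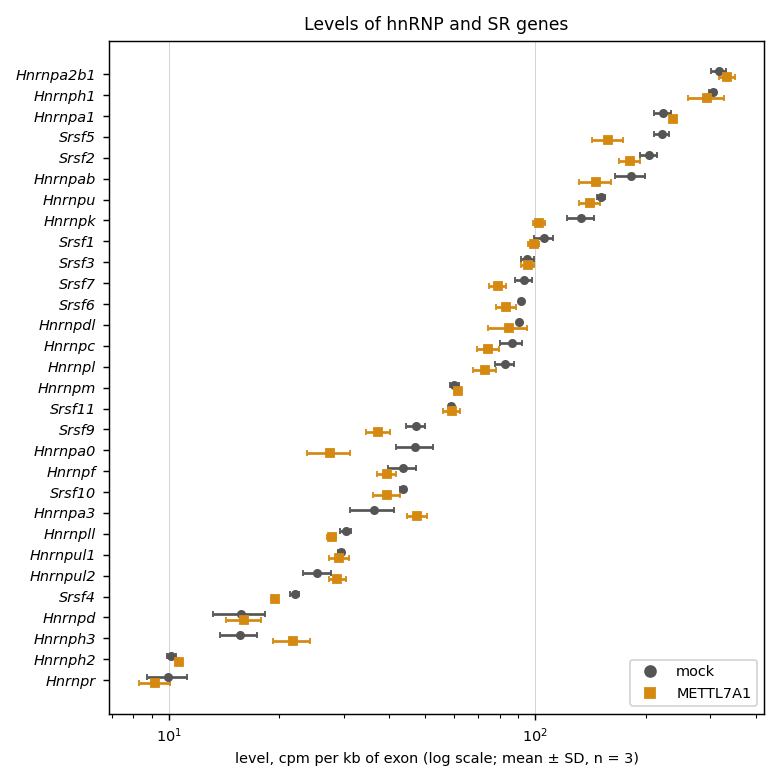
Level of each tested member in cpm per kb of annotated exon (log axis), as mean ± SD over 3 libraries, for mock (circles) and METTL7A1 (squares) cells. Genes are in order of their mock level, from Hnrnpa2b1 at 316 to Hnrnpr at 9.94 cpm per kb; Srsf5 and Hnrnpa0 show the widest gaps to the left for METTL7A1, Hnrnpa3 and Hnrnph3 the reverse.

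Comparing METTL7A1 with mock cells asked whether the mRNAs of splicing factors change with METTL7A1. At an adjusted p under 0.05 (edgeR quasi-likelihood test, Benjamini-Hochberg adjusted over 13166 genes), 9 of 30 tested members (30%) were called, against 42.1% of all tested genes. Of the 9, 7 were lower in METTL7A1 cells (21.0% of all genes were called lower) and 2 were higher (21.1% of all genes). Log2 fold changes of the 30 ranged from -0.77 to 0.47 with a median of -0.11 (-0.03 over all tested genes), and all 30 members changed by under 50%. None passed the thresholds of the study, an adjusted p under 0.01 with a log2 fold change over 1.5 in either direction, which 2.48% of all genes passed. The libraries of the groups did not overlap in 15 of the 30 members, 11 of them lower and 4 higher in METTL7A1 cells, while 51.6% of all tested genes showed no overlap. Members were thus not called more often than tested genes in general. A set of 4167 tested genes was more abundant than the least abundant tested member, by average log2 cpm and not per kb. Among these 4167 genes 48.3% were called, and the median absolute change on the log2 scale was 0.21, against 0.14 for the members. The number of lower members was 4 instead of 7 without METTL7A1 replicate 2, without mock replicate 1 and without mock replicate 2, in which fits Hnrnpab, Srsf7 and Srsf4 lost their calls.

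**Figure D2:**
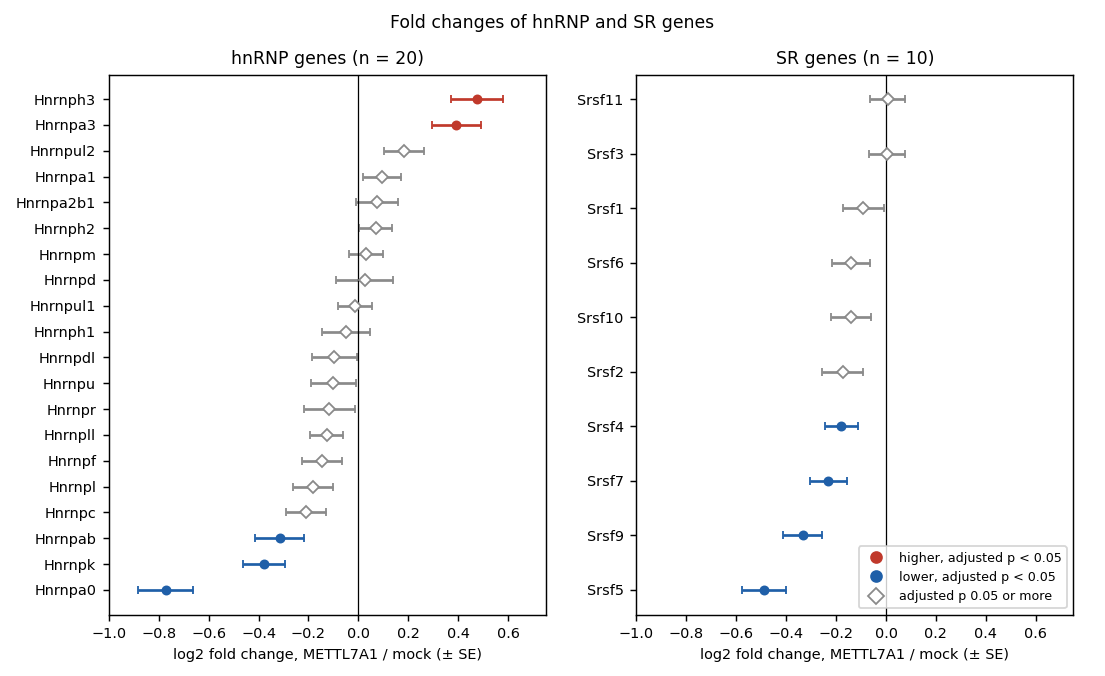
Log2 fold change of METTL7A1 over mock cells (± SE) for the 20 hnRNP genes (left) and the 10 tested SR genes (right), in order of size. Filled points passed an adjusted p of 0.05 (blue lower, red higher), open points did not; called hnRNP genes stand at both ends, from -0.77 to 0.47, and called SR genes on the lower side alone.

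Among the hnRNPs, 5 of 20 (25%) were called, 2 higher and 3 lower. Over all tested genes 42.1% were called, 21.1% higher and 21.0% lower. The median log2 fold change of the 20 was -0.07, against -0.03 over all tested genes. The A/B proteins, of which hnRNP A1 is the classical antagonist of SRSF1 in splice site choice, held the largest fall of all members but went both ways. Hnrnpa0 encodes a protein that binds AU-rich elements of cytokine mRNAs. Its gene (chromosome 13, 58125879 to 58128556, mm10, minus strand) has a single annotated transcript, and its level was 62.5, 76.7 and 81.9 cpm in METTL7A1 replicates 1 to 3 and 129, 139 and 110.4 cpm in mock replicates 1 to 3. The highest METTL7A1 library lay well under the lowest mock library. On average Hnrnpa0 fell by 41.5%, from 126 ± 14.6 to 73.7 ± 10.0 cpm (SD of 3 libraries each), or -0.77 ± 0.11 on the log2 scale (SE, edgeR adjusted p = 0.000238).

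Hnrnpa3 encodes a shuttling protein known for binding trafficking elements of mRNAs. It moved the other way: the gene (chromosome 2, 75659261 to 75669407, plus strand) had 264, 234 and 248 cpm in the METTL7A1 libraries and 162, 193 and 213 cpm in the mock libraries. The lowest METTL7A1 library was above the highest mock library, by less than the spread within mock cells. This was a difference of 0.39 ± 0.10 on the log2 scale (SE, edgeR adjusted p = 0.00847), from 189 ± 25.7 to 249 ± 15.4 cpm (SD of 3 libraries each). Hnrnpa1 and Hnrnpa2b1, both more abundant per kb, had log2 fold changes of 0.09 and 0.08 and were not called, so the A/B group as a whole had no common direction.

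The F and H proteins bind runs of G. Hnrnph3 encodes a short member of the group without the first RRM of its relatives. It lies on chromosome 10 (63014664 to 63023894, minus strand) and had 60.3, 51.6 and 48.2 cpm in the METTL7A1 libraries and 35.5, 36.0 and 43.4 cpm in the mock libraries. The groups did not overlap, although METTL7A1 replicate 3 was close to mock replicate 3. Its mean rose from 38.3 ± 4.43 to 53.4 ± 6.23 cpm (SD of 3 libraries each), or 0.47 ± 0.10 on the log2 scale (SE, edgeR adjusted p = 0.00361). The relatives Hnrnph1, Hnrnph2 and Hnrnpf were not called, with log2 fold changes of -0.05, 0.07 and -0.15. In mock cells Hnrnph1 stood at 305 cpm per kb and Hnrnph3 at 15.6 cpm per kb, so the called member is a minor mRNA of this group.

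Hnrnpk encodes a poly(C)-binding protein with KH domains that also acts in transcription. Its gene (chromosome 13, 58391142 to 58403343, minus strand) had 403, 419.8 and 433 cpm in the METTL7A1 libraries and 532, 595 and 504 cpm in the mock libraries. All METTL7A1 libraries were lower and lay close together. The mean was 544 ± 46.7 cpm in mock and 419 ± 15.1 cpm in METTL7A1 cells (SD of 3 libraries each), or -0.38 ± 0.09 on the log2 scale (SE, edgeR adjusted p = 0.00447).

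Hnrnpab encodes an RNA-binding protein of the hnRNP D group that takes part in mRNA transport. The gene (chromosome 11, 51600100 to 51606847, minus strand) had 371, 399.8 and 449 cpm in the METTL7A1 libraries and 504, 556 and 459 cpm in the mock libraries. METTL7A1 replicate 3 came close to mock replicate 3, but the groups did not overlap. This was a difference of -0.32 ± 0.10 on the log2 scale (SE, edgeR adjusted p = 0.0233), and the call was lost in 4 of 6 fits with a single library omitted (edgeR adjusted p from 0.0519 to 0.0884 in these). Hnrnpd, known as AUF1 for its part in the decay of mRNAs with AU-rich elements, and its relative Hnrnpdl were not called (0.02 and -0.10).

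HNRNPM regulates alternative exons, among them those of Cd44 in the epithelial-mesenchymal transition. Its gene (chromosome 17, 33646233 to 33686860, minus strand) had 244, 248 and 249 cpm in the METTL7A1 libraries and 235, 248 and 243 cpm in the mock libraries. The libraries lay close together and the groups overlapped. This was a difference of 0.03 ± 0.07 on the log2 scale (SE, 95% confidence interval -0.12 to 0.18, edgeR adjusted p = 0.739). The gene March2 overlaps Hnrnpm on the same strand over 1149 bases but had at most 360 counts in any library, where Hnrnpm had at least 4297.

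The other hnRNP genes were not called. Hnrnpc, whose product binds uridine tracts of nascent RNA, had an estimate of -0.21 on the log2 scale (SE 0.08, edgeR adjusted p = 0.0571) with all METTL7A1 libraries under all mock libraries, and Hnrnpl, which binds CA repeats, one of -0.18 (SE 0.08, edgeR adjusted p = 0.0862), also without overlap. Hnrnpll, the L-like protein known from splicing of Ptprc in lymphocytes, had -0.13. The U group of scaffold and DNA damage proteins lay at -0.10 (Hnrnpu), -0.01 (Hnrnpul1) and 0.18 (Hnrnpul2), and Hnrnpr at -0.12. Summed over the 20 genes, hnRNP mRNAs were at 6007 ± 179 cpm in METTL7A1 and 6329 ± 165 cpm in mock cells (SD of 3 libraries each), and the sums of the libraries overlapped.

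Among the SR genes, 4 of 10 tested were called and all 4 were lower, with a median log2 fold change of -0.16 over the 10. This share of 40% lies close to the 42.1% called over all tested genes (21.0% lower and 21.1% higher). All 4 belong to the canonical SR proteins. Srsf5 encodes an SR protein that promotes exon inclusion and whose gene is known to respond to growth signals. The gene (chromosome 12, 80945504 to 80950507, plus strand) had 286, 265 and 234 cpm in the METTL7A1 libraries and 385, 366 and 351 cpm in the mock libraries. The gap between the groups was wider than the spread within each. Srsf5 fell by 28.8%, from 367 ± 17.1 to 262 ± 25.8 cpm (SD of 3 libraries each), or -0.49 ± 0.09 on the log2 scale (SE, edgeR adjusted p = 0.0011). Being the most abundant SR mRNA per kb in mock cells, it fell to 158 ± 15.6 cpm per kb, under Srsf2 (181 ± 12.1).

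Srsf9 encodes a small SR protein with a short RS domain. Its gene (chromosome 5, 115327177 to 115333080, plus strand) had 40.2, 43.3 and 46.6 cpm in the METTL7A1 libraries and 56.4, 56.9 and 51.0 cpm in the mock libraries, without overlap. This was a difference of -0.33 ± 0.08 on the log2 scale (SE, edgeR adjusted p = 0.00589). Srsf7 encodes an SR protein with a zinc knuckle that also serves mRNA export. It had 189, 182 and 170.0 cpm against 213, 222 and 199.9 cpm (chromosome 17, 80200089 to 80207305, minus strand), or -0.23 ± 0.07 on the log2 scale (SE, edgeR adjusted p = 0.0276). The groups of Srsf7 did not overlap, but the call was lost in 4 of 6 fits with a single library omitted. Srsf4, the SR protein with the longest RS domain, had 43.4, 44.7 and 43.9 cpm against 48.5, 49.3 and 51.5 cpm (chromosome 4, 131873617 to 131901706, plus strand). Its estimate of -0.18 (SE 0.07, edgeR adjusted p = 0.0485) was the weakest call of the list and was lost under each of the 15 alternatives tried.

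The remaining SR genes were not called. Srsf1, the prototype of the family, had a log2 fold change of -0.09, and Srsf3, a small SR protein that binds the export receptor NXF1, one of 0.00. Srsf2, which stays in the nucleus and marks speckles, had -0.17 (SE 0.08, edgeR adjusted p = 0.113), Srsf6 -0.14 and Srsf10, a repressor when it loses its phosphates, -0.14. Srsf11 was at 0.01. Of 10 tested SR genes, 8 had a negative and 2 a positive estimate. Over all tested genes 6196 of 13166 estimates were positive, and 1825 of 4167 among those more abundant than the least abundant member. The sum of SR mRNAs was 2416 ± 129 cpm in METTL7A1 and 2706 ± 95.3 cpm in mock cells (SD of 3 libraries each), and ran from 2298 to 2554 cpm and from 2602 to 2789 cpm, without overlap.

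**Figure D3:**
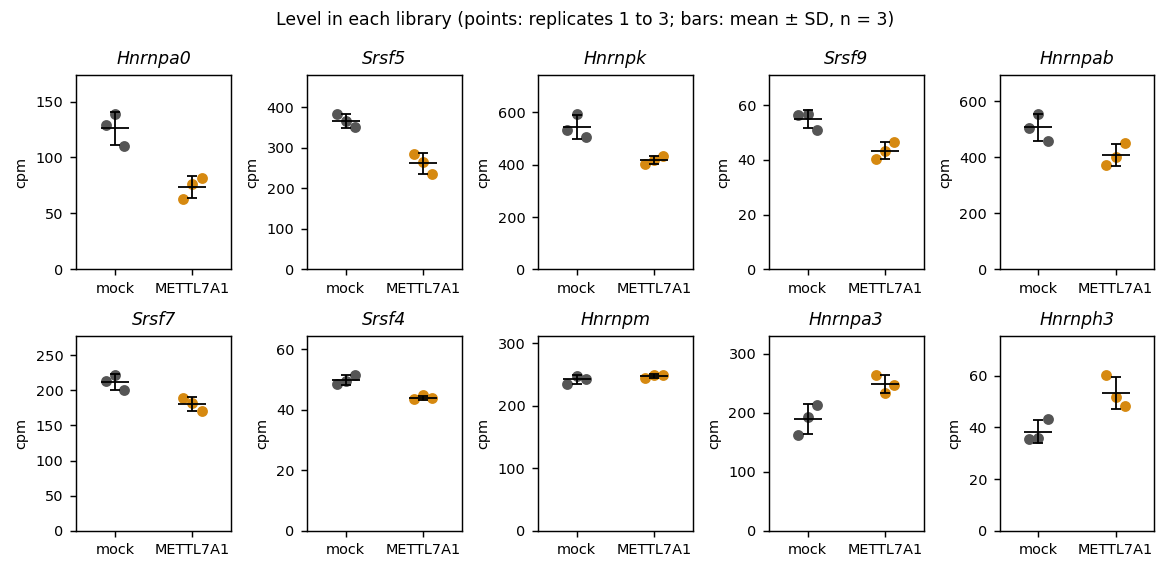
Level in cpm (axes from 0) of the 9 called members and Hnrnpm in each library, with mean ± SD of 3 libraries for mock and METTL7A1 cells; points from left to right are replicates 1 to 3. Groups do not overlap in the 9 called members, with the widest gap relative to the level in Hnrnpa0 (62.5 to 81.9 against 110.4 to 139 cpm), and overlap in Hnrnpm (244 to 249 against 235 to 248 cpm).

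The direction of most called members went with that of the genes around them, as it did for called genes in general. For each member the 40 nearest abundant genes on its chromosome (average log2 cpm over 2) were taken, without the member itself, and their median log2 fold change was computed. It had the sign of the member in 8 of the 9 called members, in 6 of 7 lower and 2 of 2 higher ones. The same held for 75.6% of 4822 called abundant genes (87.4% of the lower and 63.3% of the higher ones), so such agreement was common outside these families as well. Hnrnpa0 and Hnrnpk lie close together on chromosome 13 and each is among the neighbours of the other: the median around each was -0.50, with 39 of 40 neighbours lower. Relative to their mock mean, the neighbours of Hnrnpa0 had median log2 levels of -0.52, -0.50 and -0.47 in METTL7A1 replicates 1 to 3. Each of the 3 METTL7A1 libraries showed the shift, and the mock libraries lay between -0.08 and 0.03. Around Srsf5 the median was -0.42 (36 of 40 lower, over 6.22 Mb), around Hnrnph3 it was 0.50 (39 of 40 higher, over 9.10 Mb) and around Hnrnpa3 0.24 (31 of 40 higher). The medians around Srsf9 (-0.11), Srsf7 (-0.14) and Srsf4 (-0.11) had the sign of the member but were smaller, with 28, 28 and 25 of 40 neighbours lower. Hnrnpab was the exception in sign, with a neighbour median of 0.03 and a log2 fold change of -0.32.

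Across the 30 tested members the log2 fold change and the neighbour median correlated with a Pearson r of 0.77 and a Spearman rho of 0.60. Across 10646 abundant genes the values were 0.39 and 0.47. Those genes begin at an average log2 cpm of 2, while every tested member had group means of 38.3 cpm or more. The sets were thus not matched for level, and what this adds to the difference was not tested. The correlations are descriptions, since the genes share the same 6 libraries and neighbours share their surroundings. Hnrnpd and Hnrnpdl, Hnrnpab and Hnrnph1, Hnrnpr and Srsf10, and Hnrnpll and Srsf7 are also neighbours of each other.

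**Figure D4:**
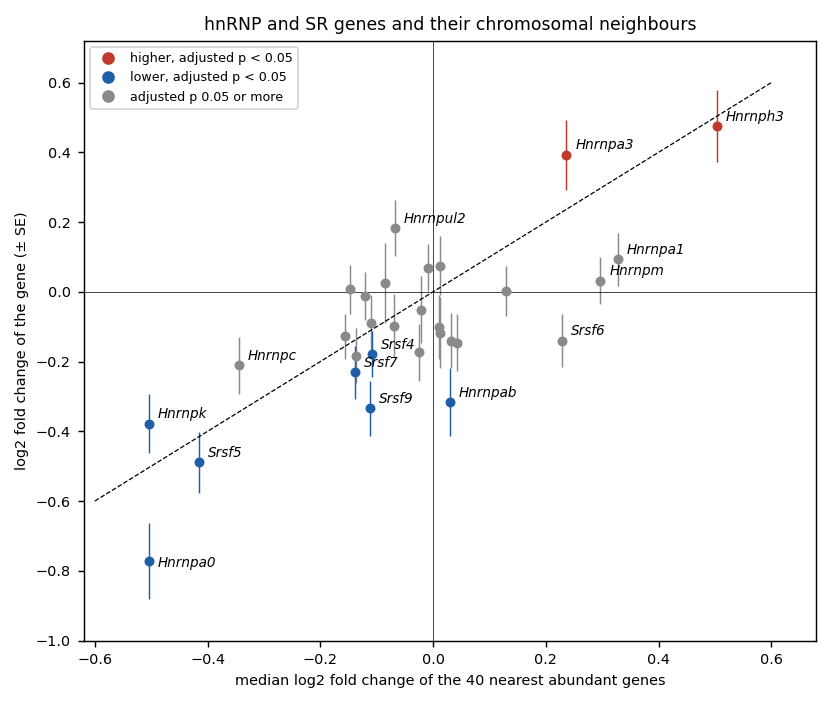
Log2 fold change of each tested member (± SE, vertical) against the median log2 fold change of its 40 nearest abundant genes (horizontal); the dashed line marks equal values. Hnrnph3, Srsf5 and Hnrnpk lie near the line, Hnrnpa0 lies below it at -0.77 against -0.50, and Hnrnpm, Hnrnpa1 and Srsf6 lie below it to the right.

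The test was repeated with the neighbour median as an offset, so that each gene was compared with its surroundings instead of the genome. The median was entered as a known value, so SE and p values of this test leave out its own error. With this offset 5 of 30 members were called, against 31.5% of all tested genes. Of the 9 calls 1 was kept, that of Hnrnpab (-0.35, SE 0.10, edgeR adjusted p = 0.0201). Over all tested genes 3364 of 5537 calls were kept. Among the 4167 tested genes more abundant than the least abundant member, 1062 of 2014 were kept. Hnrnpa0 stayed lower by estimate (-0.27, SE 0.11, edgeR adjusted p = 0.0839), as did Srsf9 (-0.22, SE 0.08, edgeR adjusted p = 0.0527). Values for Srsf5 (-0.07), Hnrnph3 (-0.03), Hnrnpk (0.13) and Hnrnpa3 (0.16) were closer to 0, and those of Hnrnph3 and Hnrnpk had the other sign. Against surroundings that were higher in METTL7A1 cells, Hnrnpm (-0.27, SE 0.07, edgeR adjusted p = 0.0122), Hnrnpa1 (-0.23, SE 0.08, edgeR adjusted p = 0.0362) and Srsf6 (-0.37, SE 0.08, edgeR adjusted p = 0.00357) were called lower, and Hnrnpul2 was called higher (0.25, SE 0.08, edgeR adjusted p = 0.036). None of these 4 was called without the offset: the median around Hnrnpm was 0.30 with 38 of 40 neighbours higher, around Hnrnpa1 0.33 and around Srsf6 0.23. Hnrnpul2 had a neighbour median of -0.07. The span of the neighbours of Hnrnpa1 on chromosome 15 (100227819 to 103366763) includes the locus of Mettl7a1. What moved the neighbours was not tested.

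The counts pool all transcripts of a gene, which matters for these families. In the GENCODE M21 annotation 19 of the 30 tested members (63.3%) have a transcript annotated as subject to NMD, against 29.9% of the 10801 tested genes with a coding transcript, and 22 (73.3%) have a retained-intron transcript, against 61.1%. Of the called members, Hnrnpa0, Hnrnpab and Hnrnpa3 have no NMD transcript, while Hnrnph3, Srsf5, Srsf7 and Srsf9 have 1 each, Srsf4 has 2 and Hnrnpk 3. Coding and NMD forms of 1 gene are not told apart by these values.

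Sequence shared with other genes could affect some members, as the treatment of reads that map to several places is not stated. Hnrnpf shared 46.0%, Hnrnpa1 29.9%, Hnrnpa3 27.6%, Srsf2 23.1% and Hnrnph2 22.0% of their 31-base stretches with other genes. The 42 genes that each shared at least 1% with Hnrnpa3 had 253 counts at most and 455 when their highest counts were summed, where Hnrnpa3 had at least 2959. The gene sharing most with Hnrnpf (Gm6430) had at most 6. If reads that map to several places were left out, a member and its copies would both lose them. These low counts therefore set no bound on the effect, which also touches the levels per kb of such members. Hnrnph3 shared 2.66% of its stretches with Rufy2, which had up to 1443 counts against 649 or more for Hnrnph3, and values of Hnrnph3 are uncertain to this extent. Hnrnpa0, Srsf9, Srsf4 and Hnrnpm shared none, overlapping genes aside. On the opposite strand, Srsf4 overlaps Gm12992 over 1532 bases (at most 104 counts), Hnrnpab overlaps Phykpl over 364 bases (at most 962) and Hnrnpk overlaps Rmi1 over 53 bases (at most 321); how strand was set in counting is not stated.

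For context, 110 other splicing genes in 6 lists were examined, of which 102 were tested and 40 (39.2%, against 42.1% of all tested genes) were called, 12 higher and 28 lower, with a median log2 fold change of -0.08 and none past the thresholds of the study. The 40 calls became 26 without METTL7A1 replicate 2 and 26 without mock replicate 1. Of 9 tested kinases and importers of SR proteins 2 rose and 7 were not called. Srpk2, a cytoplasmic SR protein kinase, went from 46.0 ± 1.66 to 65.5 ± 0.825 cpm (SD of 3 libraries each), or 0.51 ± 0.07 on the log2 scale (SE, edgeR adjusted p = 0.000125), and Clk3, a nuclear one, had 0.23 (SE 0.07, edgeR adjusted p = 0.0217). Both kept their calls with the neighbour offset. Of 16 SR-related proteins without an Srsf symbol, 2 fell (Pnn by 0.66 and Acin1 by 0.35 on the log2 scale, both exon junction complex partners) and 3 rose (Srrm2 0.34, Scaf11 0.25 and Scaf8 0.24), and none kept its call with the offset. Of 16 hnRNP proteins under other symbols 3 fell, the poly(C)-binding Pcbp3 (-0.44) and Pcbp4 (-0.30) and the Hnrnpr relative Syncrip (-0.23). The study also recovered SYNCRIP protein together with METTL7A1. The call of Syncrip was not kept with the offset (-0.16, edgeR adjusted p = 0.145).

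The core spliceosome was the longest of these lists. Of its 35 tested genes 19 (54.3%) were called, 16 lower and 3 higher, with a median of -0.14. Over all tested genes 42.1% were called, made up of 21.0% lower and 21.1% higher. Among the 4167 genes more abundant than the least abundant member, 48.3% were called. Prpf4 of the U4/U6 particle fell from 56.4 ± 1.28 to 37.5 ± 0.842 cpm (SD of 3 libraries each, log2 fold change -0.59, SE 0.07, edgeR adjusted p = 4.9e-05). Sf3b5 (-0.87), Sf3b6 (-0.59) and Eftud2 (-0.44), parts of the U2 and U5 particles, fell as well, while Snrpd1 (0.34), Snrpd3 (0.37) and Sf3a2 (0.25) rose. With the offset 11 of the 35 were called, a share close to the 31.5% of all tested genes called with it. All 11 were lower, and 8 of them were kept from the 19. Over all tested genes 1763 were called lower and 2384 higher with the offset. Of 15 NMD factors 6 were called, a share of 40% that is close to that of all tested genes. Of these 5 fell, the helicase Upf1 (-0.35), Smg5 (-0.34), Smg8 (-0.41), Smg9 (-0.43) and Eif4a3 (-0.30), and Upf2 rose by 0.23. Of 11 tested regulators restricted to certain cell types, Mbnl2 (-0.42) and the epithelial regulator Esrp1 (-0.25) fell, and Qk (0.40) and Rbm47 (0.42) rose. Srrm4 (0.78) was called higher too, at 0.902 and 1.57 cpm in mock and METTL7A1 cells. It could meet the limit of 1 cpm in at least 3 libraries only with its METTL7A1 libraries (1.56, 1.15 and 1.99 cpm), so the filter itself favoured a rise. Its mock libraries held 16 to 24 counts. Of the 40 calls over all 6 lists, 16 were kept with the offset, against 3364 of 5537 calls over all tested genes.

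**Figure D5:**
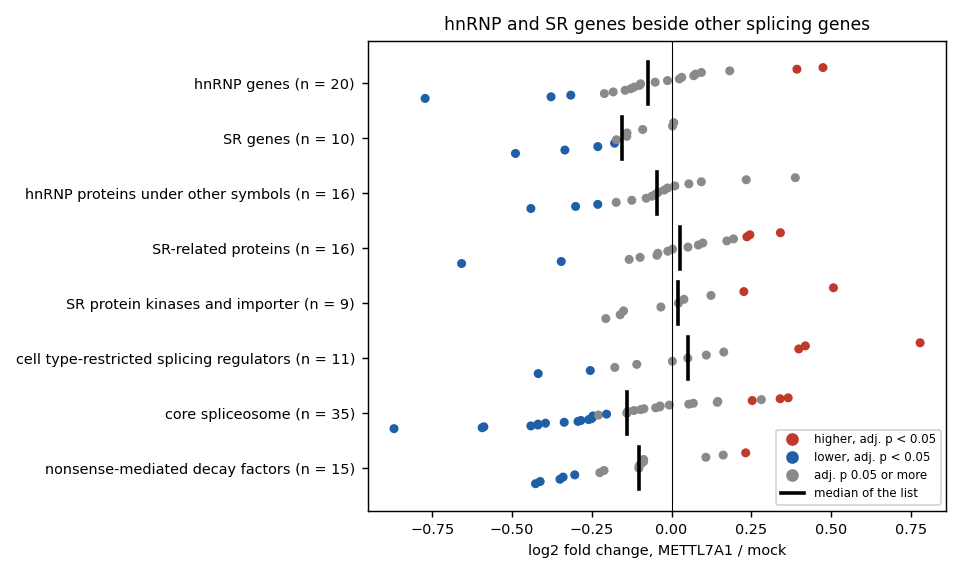
Log2 fold change of METTL7A1 over mock cells for each tested gene of the hnRNP and SR families and of 6 other lists of splicing genes, with the median of each list as a bar. Medians lie between -0.16 (SR genes) and 0.05 (cell type-restricted regulators), and the core spliceosome has 16 genes called lower and 3 called higher.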

How the data were processed

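Total RNA of 6 libraries was sequenced after removal of ribosomal RNA, with stranded libraries on a NovaSeq. The authors trimmed reads, aligned pairs to mm10 with STAR 2.5.3a (version from the submitters' processing notes), counted them with featureCounts and deposited the raw gene counts. The deposited table also gives exon lengths, used here for levels per kb. Groups were taken from the sample titles.

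Genes with at least 1 cpm in at least 3 libraries were tested in R 4.3.3 with edgeR 4.0.16 (TMM, glmQLFit and glmQLFTest, no covariate), adjusted over 13166 genes; a gene was called at an adjusted p under 0.05. The thresholds of the study (adjusted p under 0.01, log fold change over 1.5) were read on the log2 scale. Standard errors were derived from the F statistic (size of the log2 fold change over root F). Levels of neighbours in each library were log2(cpm + 0.5). The scripts were tested on simulated data. Members and lists were chosen with earlier results of these data known.

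Hnrnpm and every called member are given in full, the 3 most abundant uncalled members by rule and the rest to account for the whole list. From each other list up to 4 called genes of the smallest p are named. Srrm2, Srrm4, Upf2, Eif4a3, Snrpd1, Snrpd3, Sf3a2, the members called with the offset and those near the threshold were singled out after their values were seen. Promoters come from RefSeq (GRCm38.p6) and match 28 members by symbol. Windows of Hnrnpk and Hnrnpm start 1226 and 1402 bases inside the annotated gene. Symbols of 46484 of the 48587 listed genes, all 31 members included, are in GENCODE M21. Libraries with the same replicate number were not paired, as their deviations from the group means correlated with -0.16, 0.23 and -0.39.

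Alternatives were scaling by RLE or upper quartile, all genes without a filter, a minimum of 10 counts in all libraries, leaving out the 20 most abundant genes, a replicate block, omission of each library, DESeq2 1.42.0, voom of limma 3.58.1 and the neighbour offset.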

Additional observations from a re-analysis of the deposited data

How the results depend on the processing

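The count of all genes past the thresholds of the study was 326, 710 without an abundance filter and 205 with at least 10 counts in every library, settings that change the genes admitted. With the neighbour offset 1 member was called higher, not one of the 2 called without it, and 4 were called lower, of which 1 was shared; Hnrnph3 (-0.029), Hnrnpk (0.13) and Hnrnpm (-0.27) took the other sign. Related splicing genes fell from 40 to 24 calls with the offset, and all tested genes from 5537 to 4147. With single libraries omitted, 4 to 7 members were lower and 26 to 47 related genes were called. The lowest number of related genes came without METTL7A1 replicate 2 and without mock replicate 1. The cause was not tested. With a replicate block, 2 members were higher, 6 lower and 32 related genes called, Srsf4 being the call lost; no other member's call changed. Under RLE and upper quartile scaling, at least 10 counts in every library, without the 20 most abundant genes, DESeq2 and voom, Srsf4 was the one called member to lose its call. Without an abundance filter Srsf7 lost its call too. With 3 libraries in a group, changes as small as those of Srsf4 and Srsf7 lie at the limit of what was called.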
